A study of Mus musculus with 12 samples.

Results

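The renin-angiotensin system was described here through 9 genes: Ren1 (ENSMUSG00000070645), Agt (ENSMUSG00000031980), Ace (ENSMUSG00000020681), Enpep (ENSMUSG00000028024), Mme (ENSMUSG00000027820), Agtr1a (ENSMUSG00000049115), Agtr1b (ENSMUSG00000054988), Mas1 (ENSMUSG00000068037) and Atp6ap2 (ENSMUSG00000031007). They were taken by symbol from a count table of 32047 genes, and all 9 were found. The table covers kidney RNA of 12 mouse libraries, 4 in each of 3 groups. The FGF23 variant group overexpressed FGF23 R176Q/R179Q, a form of the bone hormone with substitutions in its proteolytic cleavage site, and was given acute kidney injury by rhabdomyolysis (breakdown of skeletal muscle) 3 weeks later. FGF23 variant libraries are numbered 1, 2, 3 and 5 in their titles, and no number 4 is among them. The AKI mCherry group carries the same injury label and the name of the red fluorescent protein mCherry. No interval from construct to injury is listed for it. The third group is called NC without an explanation. Its labels name neither the injury nor a construct. The sources used here give no strain, sex, age, vector or promoter. They do not say that the 4 libraries of a group are from separate animals, and a p-value below measures only how these samples spread, which may be technical. No uninjured group labelled with a construct was analysed here. The FGF23 variant could be compared with mCherry after injury only. Injury and construct cannot be told apart in the comparisons with NC.

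Renin, made by juxtaglomerular cells of the afferent arteriole, cuts angiotensinogen to angiotensin I. Angiotensin-converting enzyme (Ace) turns angiotensin I into angiotensin II, which raises vascular tone and sodium retention through type 1 receptors. In the kidney the proximal tubule makes angiotensinogen and carries Ace, aminopeptidase A (Enpep) and neprilysin (Mme) on its brush border, and the last pair break down angiotensin peptides or turn them into other active forms. Mas1 is the receptor for one of these products and opposes type 1 receptor signalling in many settings.

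Promoter windows of 5 members are shown because these genes fell into 3 kinds of pattern across the groups, given further on. Agt, Enpep and Mme were lower in AKI mCherry than in NC and higher in FGF23 variant libraries than in AKI mCherry, Ace was low in both injured groups, and Ren1 passed the test in no comparison. Each window holds 250 bases before and 50 after a RefSeq start in build GRCm38.p6, which differs from the build GRCm39 of the submitters' processing notes, and runs along the gene's own strand. Capitals mark the letters TATAAA on either strand (TTTATA where the match is on the other strand).
Ren1, chr1:133350424-133350723, plus strand: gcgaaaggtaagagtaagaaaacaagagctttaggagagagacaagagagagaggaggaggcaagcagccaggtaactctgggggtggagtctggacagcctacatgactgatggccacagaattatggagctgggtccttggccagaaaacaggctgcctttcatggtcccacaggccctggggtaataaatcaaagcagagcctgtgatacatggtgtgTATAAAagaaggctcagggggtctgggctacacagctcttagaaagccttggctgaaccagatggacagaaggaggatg
Agt, chr8:124569657-124569956, minus strand: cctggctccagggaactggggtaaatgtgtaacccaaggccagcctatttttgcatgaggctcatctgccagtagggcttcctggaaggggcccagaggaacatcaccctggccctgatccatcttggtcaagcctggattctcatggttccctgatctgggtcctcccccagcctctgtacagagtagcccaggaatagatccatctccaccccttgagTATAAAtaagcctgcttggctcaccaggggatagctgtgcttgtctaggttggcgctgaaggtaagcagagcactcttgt
Ace, chr11:105967698-105967997, plus strand: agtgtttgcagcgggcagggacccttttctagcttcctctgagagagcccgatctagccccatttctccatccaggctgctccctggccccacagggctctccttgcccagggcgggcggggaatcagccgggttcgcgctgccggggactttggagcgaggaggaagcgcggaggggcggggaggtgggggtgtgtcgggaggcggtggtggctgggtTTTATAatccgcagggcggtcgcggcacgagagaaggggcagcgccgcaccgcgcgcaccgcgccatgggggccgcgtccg
Enpep, chr3:129332700-129332999, minus strand: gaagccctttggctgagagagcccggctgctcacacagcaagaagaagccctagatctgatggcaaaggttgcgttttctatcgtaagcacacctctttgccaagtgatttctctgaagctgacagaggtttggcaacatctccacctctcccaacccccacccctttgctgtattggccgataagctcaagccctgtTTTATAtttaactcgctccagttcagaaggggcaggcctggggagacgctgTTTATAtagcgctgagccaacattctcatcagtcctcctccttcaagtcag
Mme, chr3:63294961-63295260, plus strand: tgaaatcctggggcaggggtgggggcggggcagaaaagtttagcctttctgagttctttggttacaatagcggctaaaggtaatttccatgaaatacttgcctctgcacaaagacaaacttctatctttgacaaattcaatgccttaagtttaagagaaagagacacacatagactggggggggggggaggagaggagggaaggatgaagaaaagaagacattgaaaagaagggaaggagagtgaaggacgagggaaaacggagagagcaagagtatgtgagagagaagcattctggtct

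The set of windows supplied here covered 8 of the 9 members, all but Agtr1a, with 11 windows in all. TATAAA occurred on either strand in 13.6% of all 32851 mouse windows. On the gene's strand it lay 29 bases before the start in Ren1, 30 in Agt and 31 in Agtr1b. Ace had it on the other strand 31 bases before its first listed start, and Enpep had it on the other strand 52 bases and 1 base before the start. The 3 windows of Mme and those of Atp6ap2 and Mas1 did not hold it. The other 3 motifs searched on both strands were TGACGTCA (the cAMP response element, in 1.79% of all windows), GTTAAT (a half-site of HNF1, in 7.10%) and AGGTCA (a half-site of nuclear receptors, in 16.3%). Among the members the only match was AGGTCA, 50 bases before the second listed start of Ace, which lies inside the gene near the start known for the testis form. Counts per gene do not show which Ace start was used, and a match of letters is no evidence of a bound site.

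Library totals were 55324078 to 70638283 counts. The overexpressed gene, Fgf23, had 320 to 517 counts in the FGF23 variant libraries, against 0 in the other 8. Havcr1, a tubular injury gene, averaged 1048 ± 489 CPM in the FGF23 variant group, 2812 ± 746 CPM in AKI mCherry and 3.26 ± 1.23 CPM in NC (CPM, counts scaled by library size, here with TMM factors; SD, n = 4 each). Kidney markers were present in all groups, and those of the tubule are given with the brush border genes. Each comparison below was tested with edgeR's quasi-likelihood test over all genes and adjusted by Benjamini-Hochberg, with 0.05 as the threshold. The 3 comparisons share libraries and are not independent. With library totals alone in place of TMM factors, the median log2 fold change of all genes became 0.12 for AKI mCherry against NC, 0.21 for FGF23 variant against AKI mCherry and 0.34 for FGF23 variant against NC, so all folds below are relative to the bulk of genes.

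In AKI mCherry against NC, 6 of the 8 tested members were lower (Agt, Ace, Enpep, Mme, Agtr1a and Mas1) and 0 were higher. In the background, 26.0% of all 18724 tested genes were lower and 27.2% were higher. The median log2 fold change was -1.70 over the 8 members and -0.00264 over all tested genes. The 2 members not called were Ren1 and Atp6ap2, and Agtr1b was not tested because its counts were too low. CPM did not overlap between the groups for 7 of the 8, all lower, as for 26.0% of all genes. In the FGF23 variant group against AKI mCherry, 4 of 9 members were higher (Agt, Agtr1a, Mme and Enpep) and 0 lower, where 11.7% of 18824 genes were higher and 11.4% lower. The groups did not overlap for those 4, as for 14.5% of all genes in the higher direction. In the FGF23 variant group against NC, 5 of 9 were lower (Ace, Mas1, Mme, Agtr1a and Enpep) and 0 higher, where 20.6% of 19005 genes were lower and 21.7% higher. The groups did not overlap in TMM-scaled CPM for those 5, as for 21.1% of all genes in the lower direction. In the deposited FPKM (scaled by gene length and library total), these groups did overlap for Agtr1a and Enpep.

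**Figure D1:**
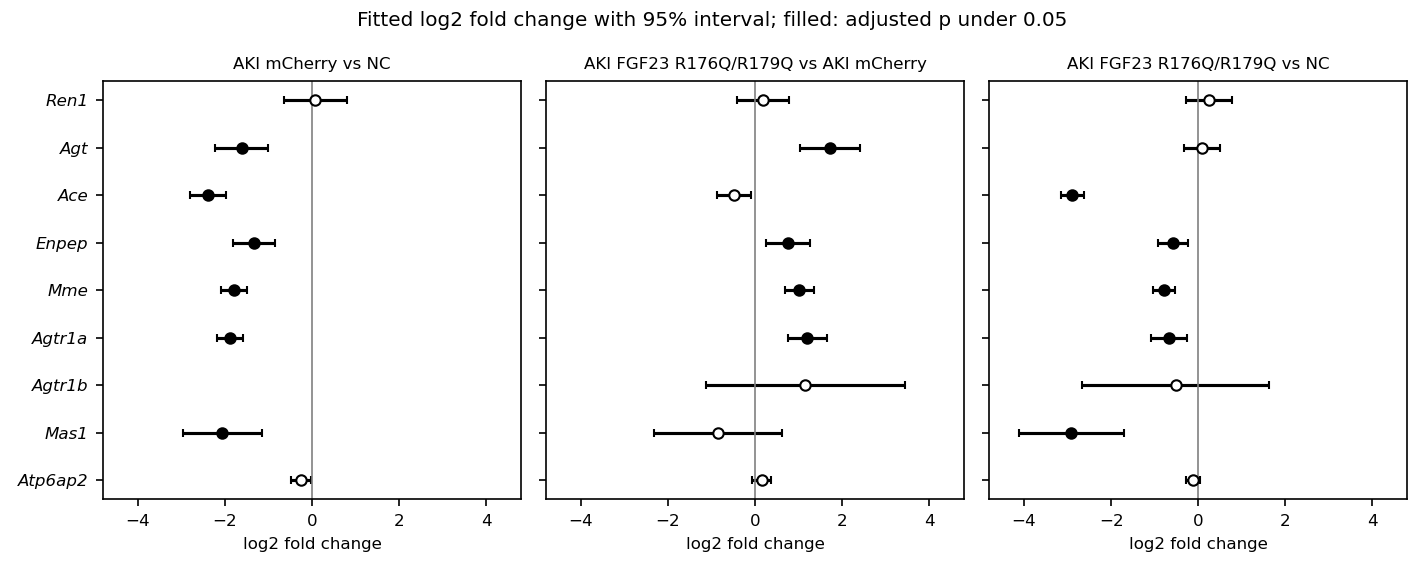
Log2 fold change of each member in the 3 comparisons (x axis), with its 95% interval and filled points for adjusted p under the threshold. Ace lies at -2.40 in AKI mCherry against NC and at -2.90 in the FGF23 variant group against NC, while Agt lies at -1.62 and at 0.09.

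Ren1, the aspartic protease that starts the cascade, passed the test in no comparison. Its level was 80.3, 67.4, 90.7 and 63.1 CPM in the FGF23 variant libraries, 112.6, 57.0, 55.0 and 41.5 CPM in AKI mCherry, and 48.3, 39.3, 87.3 and 80.1 CPM in NC. All 3 groups overlapped, and 1 AKI mCherry library held the highest value. For AKI mCherry against NC the log2 fold change was 0.08 with a 95% interval of -0.64 to 0.81 (edgeR adjusted p = 0.856). For FGF23 variant against AKI mCherry it was 0.18 with an interval of -0.42 to 0.78 (edgeR adjusted p = 0.655). Without AKI mCherry replicate 1, the highest library, that comparison gave 0.56 (edgeR adjusted p = 0.0352). Against NC, Ren1 in the FGF23 variant group was at 0.26 (SE 0.24, edgeR adjusted p = 0.421). Some mouse strains carry a near-identical second renin gene, and with the strain not given, the Ren1 counts could include its reads.

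Markers of juxtaglomerular and mural cells, which include the renin-making cells, showed 4 higher and 2 lower of 11 tested in AKI mCherry against NC, where 27.2% of all genes were higher and 26.0% lower. Their summed level was 407 to 536 CPM in the FGF23 variant group, 352 to 600 CPM in AKI mCherry and 295 to 481 CPM in NC. The most abundant was Acta2, smooth muscle actin, at 118 ± 23.0 CPM in the FGF23 variant group, 136 ± 32.8 CPM in AKI mCherry and 82.4 ± 25.6 CPM in NC. Tagln, another smooth muscle gene, followed at 66.7 ± 12.4, 102 ± 36.0 and 41.1 ± 21.0 CPM in the same groups (SD, n = 4 each). In bulk RNA, fewer cells of a type and less RNA per cell cannot be told apart, and the part of these cells in the Ren1 values was not tested.

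Agt, which encodes angiotensinogen, was low in AKI mCherry and not in the FGF23 variant group. Its level was 52.7, 77.0, 102.6 and 60.7 CPM in the FGF23 variant libraries, 19.9, 37.4, 13.2 and 19.0 CPM in AKI mCherry, and 82.2, 64.7, 67.3 and 65.3 CPM in NC. Every AKI mCherry library lay below every other library, while the FGF23 variant and NC libraries overlapped. Agt was 3.07-fold lower in AKI mCherry than in NC (log2 fold change -1.62, SE 0.27, edgeR adjusted p = 5.57e-04). It was 3.28-fold higher in FGF23 variant libraries than in AKI mCherry (1.72, SE 0.31, edgeR adjusted p = 0.00493). For FGF23 variant against NC the log2 fold change was 0.09 with a 95% interval of -0.32 to 0.49 (edgeR adjusted p = 0.742), which does not show that the levels were alike. Relative to its mean, Agt was the most variable of the members above 5 CPM within the FGF23 variant group, at 73.2 ± 22.0 CPM there, against 22.4 ± 10.4 CPM in AKI mCherry and 69.9 ± 8.29 CPM in NC (SD, n = 4 each).

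Since liver is the main source of circulating angiotensinogen, hepatocyte markers were read beside Agt. Of 6 tested, 4 were lower and 1 higher in AKI mCherry than in NC, where 26.0% of all genes were lower and 27.2% higher. In FGF23 variant libraries 2 were higher and 2 lower than in AKI mCherry, where 11.7% and 11.4% of all genes were. Serpina1a, a protease inhibitor that mouse kidney also makes, averaged 160 ± 30.0 CPM in the FGF23 variant group, 31.1 ± 7.78 CPM in AKI mCherry and 56.2 ± 23.0 CPM in NC (SD, n = 4 each). Ttr, the thyroid hormone carrier, averaged 78.4 ± 30.0, 12.6 ± 5.15 and 129 ± 18.7 CPM in the same groups. Alb, albumin, named after its values were seen, was among the lower ones, at 3.81 CPM in the FGF23 variant group against 9.76 CPM in AKI mCherry. Fgb, a fibrinogen gene also named after its values were seen, was the one that was higher in AKI mCherry than in NC (208-fold), and averaged 73.9 CPM in the FGF23 variant group, 144 CPM in AKI mCherry and 0.693 CPM in NC, a large share of the AKI mCherry sum. The summed list was 273 to 443 CPM in the FGF23 variant group, 134 to 268 CPM in AKI mCherry and 165 to 246 CPM in NC, and its part in the Agt values was not tested.

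**Figure D2:**
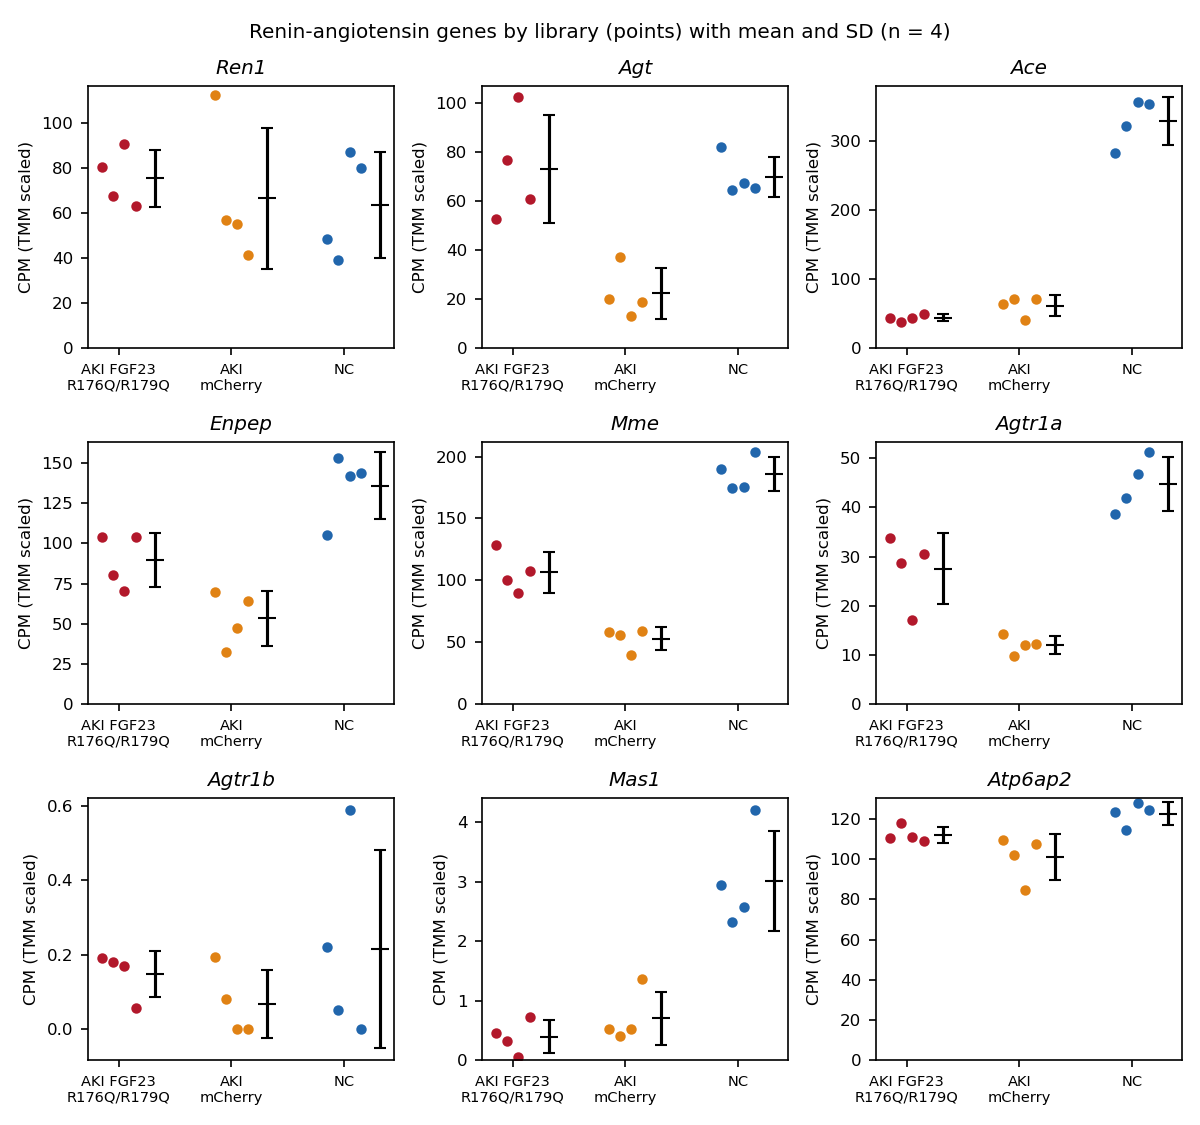
Level of each member (y axis, TMM-scaled CPM, starting at or near 0) in the FGF23 variant, AKI mCherry and NC libraries (points), with mean and SD of 4 libraries. The 4 AKI mCherry libraries are lowest for Agt, Mme and Agtr1a, both injured groups lie far below NC for Ace and Mas1, and Ren1 overlaps in all groups.

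Ace, the converting enzyme, had the largest fall of the members in AKI mCherry against NC and was also low in the FGF23 variant group. Its level was 43.8, 37.2, 44.1 and 49.7 CPM in the FGF23 variant libraries, 63.8, 71.0, 40.0 and 71.6 CPM in AKI mCherry, and 283, 322, 357 and 354 CPM in NC. Every injured library lay below every NC library, and the 2 injured groups overlapped through 1 AKI mCherry library. Ace was 5.26-fold lower in AKI mCherry than in NC (log2 fold change -2.40, SE 0.19, edgeR adjusted p = 2.72e-06) and 7.44-fold lower in FGF23 variant libraries than in NC (-2.90, SE 0.12, edgeR adjusted p = 1.84e-07). Between the injured groups the log2 fold change was -0.49 with a 95% interval of -0.88 to -0.10, which missed the threshold after adjustment (edgeR adjusted p = 0.0663). It passed without AKI mCherry replicate 3, the low library (-0.65, edgeR adjusted p = 0.00627), with DESeq2 (-0.50, adjusted p = 0.0339), with limma-voom (-0.54, adjusted p = 0.0328) and with all 12 libraries in 1 fit (-0.50, edgeR adjusted p = 0.0391). An antisense gene inside Ace, Gm11651, had 0 to 2 counts per library.

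Enpep, which trims angiotensin II to angiotensin III, was lower in both injured groups than in NC. Its level was 104.3, 80.2, 70.3 and 103.8 CPM in the FGF23 variant libraries, 70.0, 32.3, 47.2 and 64.2 CPM in AKI mCherry, and 105.5, 153, 142 and 144 CPM in NC. The groups did not overlap in TMM-scaled CPM, though the highest AKI mCherry library lay next to the lowest FGF23 variant library. The highest FGF23 variant library (104.3) likewise lay next to the lowest NC library (105.5). In the deposited FPKM, FGF23 variant (15.57 to 23.26) and NC (18.29 to 27.33) overlapped. Enpep was 2.51-fold lower in AKI mCherry than in NC (log2 fold change -1.33, SE 0.22, edgeR adjusted p = 5.19e-04). It was 1.68-fold higher in FGF23 variant libraries than in AKI mCherry (0.75, SE 0.23, edgeR adjusted p = 0.0398). That call was lost without a filter on low counts (edgeR adjusted p = 0.0656) and without FGF23 variant replicate 1 (0.107), 2 (0.0657) or 5 (0.104) or AKI mCherry replicate 2 (0.0577) or 3 (0.0865), the numbers in brackets being edgeR adjusted p. Against NC, Enpep was 1.498-fold lower in the FGF23 variant group (-0.58, SE 0.16, edgeR adjusted p = 0.0117).

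Mme, neprilysin, which also breaks down natriuretic peptides and kinins, separated all 3 groups without overlap. Its level was 128, 100.4, 89.6 and 108 CPM in the FGF23 variant libraries, 57.9, 55.4, 39.3 and 58.9 CPM in AKI mCherry, and 189.7, 175, 175 and 204 CPM in NC. The FGF23 variant libraries all lay between the other groups. Mme was 3.46-fold lower in AKI mCherry than in NC (log2 fold change -1.79, SE 0.14, edgeR adjusted p = 2.53e-06), 2.02-fold higher in FGF23 variant libraries than in AKI mCherry (1.01, SE 0.15, edgeR adjusted p = 0.00209) and 1.72-fold lower in FGF23 variant libraries than in NC (-0.78, SE 0.11, edgeR adjusted p = 2.93e-04).

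Agtr1a, the main type 1 angiotensin receptor of mouse kidney, had the same order of groups as Mme. Its level was 33.9, 28.7, 17.1 and 30.6 CPM in the FGF23 variant libraries, 14.2, 9.78, 11.9 and 12.2 CPM in AKI mCherry, and 38.7, 41.9, 46.9 and 51.3 CPM in NC. Groups did not overlap in TMM-scaled CPM, and FGF23 variant replicate 3 was nearest to AKI mCherry. In the deposited FPKM, FGF23 variant (6.41 to 12.75) and NC (11.34 to 14.79) overlapped. Agtr1a was 3.66-fold lower in AKI mCherry than in NC (log2 fold change -1.87, SE 0.14, edgeR adjusted p = 1.54e-06), 2.29-fold higher in FGF23 variant libraries than in AKI mCherry (1.20, SE 0.20, edgeR adjusted p = 0.00379) and 1.60-fold lower in FGF23 variant libraries than in NC (-0.68, SE 0.19, edgeR adjusted p = 0.0136). With library totals alone, the last comparison was lost for Agtr1a (log2 fold change -0.34, edgeR adjusted p = 0.146) and for Enpep (-0.25, edgeR adjusted p = 0.216), and Mme passed at -0.45 in place of -0.78 (edgeR adjusted p = 0.00650). An intronic gene on the same strand, Gm48161, had 77 to 124 counts in the FGF23 variant group, 71 to 159 in AKI mCherry and 68 to 115 in NC.

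Agtr1b, the second mouse type 1 receptor gene and a close copy of Agtr1a, was near the limit of detection. It had 15, 14, 12 and 4 counts in the FGF23 variant libraries, 11, 4, 0 and 0 in AKI mCherry, and 12, 3, 36 and 0 in NC. The groups overlapped, and no difference was detectable at this depth (log2 fold change 1.15, SE 1.03, edgeR adjusted p = 0.446 for FGF23 variant against AKI mCherry). How reads shared by the 2 copies were assigned is not given in the sources used here, so the split between them is uncertain.

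Mas1, the receptor for a heptapeptide product of angiotensin II that opposes type 1 signalling, was low in level and lower still in both injured groups. It had 36, 25, 4 and 52 counts in the FGF23 variant libraries, 30, 20, 33 and 92 in AKI mCherry, and 160, 132, 158 and 261 in NC. Every injured library lay below every NC library, and the injured groups overlapped. Mas1 was 4.17-fold lower in AKI mCherry than in NC (log2 fold change -2.06, SE 0.41, edgeR adjusted p = 0.00164) and 7.56-fold lower in FGF23 variant libraries than in NC (-2.92, SE 0.54, edgeR adjusted p = 0.00149). Between the injured groups it was -0.85 with a 95% interval of -2.32 to 0.63 (edgeR adjusted p = 0.383). Airn, a long noncoding RNA transcribed across Mas1 on the opposite strand, had 70 to 164 counts in the FGF23 variant group, 63 to 89 in AKI mCherry and 532 to 768 in NC. The library kit marks strand, per the labels' protocols, but whether counting used it is not given in the sources used here, so Mas1 and Airn reads may not be told apart and the part of Airn in the Mas1 values was not tested.

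Atp6ap2, the (pro)renin receptor and an accessory subunit of the vacuolar proton pump, passed the test in no comparison. Its level was 111, 118, 111 and 109 CPM in the FGF23 variant libraries, 109.8, 102, 84.5 and 108 CPM in AKI mCherry, and 124, 115, 128 and 124 CPM in NC. The AKI mCherry libraries lay below all NC libraries, with a log2 fold change of -0.26 (SE 0.10, edgeR adjusted p = 0.0579). This missed the threshold and passed under 5 of 17 alternatives. For FGF23 variant against AKI mCherry the value was 0.15 with a 95% interval of -0.06 to 0.37 (edgeR adjusted p = 0.282), and it passed with library totals alone (0.36, edgeR adjusted p = 0.0269). For FGF23 variant against NC it was -0.11 (SE 0.07, edgeR adjusted p = 0.234) and turned to 0.22 with library totals alone (edgeR adjusted p = 0.0190).

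Because levels of different genes can be ordered only per length, the deposited FPKM values were used to rank the members. In the FGF23 variant group the order was Ren1 (47.5 ± 7.87 FPKM), Atp6ap2 (44.7 ± 1.23), Agt (40.4 ± 11.97), Enpep (19.9 ± 3.93), Agtr1a (10.3 ± 2.76), Mme (9.64 ± 1.52) and Ace (8.64 ± 1.08), with Mas1 and Agtr1b at 0.153 and 0.0700 FPKM. In AKI mCherry it was Ren1 (36.3 ± 17.6 FPKM), Atp6ap2 (34.8 ± 4.34), Ace (10.5 ± 2.39), Agt (10.5 ± 4.13), Enpep (10.4 ± 3.64), Mme (4.13 ± 0.720) and Agtr1a (3.91 ± 0.749), with Mas1 and Agtr1b at 0.240 and 0.0275 FPKM. In NC Ace came first (51.2 ± 5.37 FPKM), before Atp6ap2 (38.5 ± 1.51), Ren1 (31.6 ± 11.5), Agt (30.4 ± 3.46), Enpep (23.8 ± 3.87), Mme (13.2 ± 0.728) and Agtr1a (13.2 ± 1.51), with Mas1 and Agtr1b at 0.930 and 0.0800 FPKM (SD, n = 4 in each group). Ace thus held rank 7 in the FGF23 variant group, 3 in AKI mCherry and 1 in NC. Only neighbours in rank were compared throughout. Their ranges overlapped between Ren1 and Atp6ap2 and between Mme and Agtr1a in all 3 groups, and between Ren1 and Agt in NC. They also overlapped between Ace, Agt and Enpep in AKI mCherry, and between Atp6ap2 and Agt, Mme and Ace, and Mas1 and Agtr1b in the FGF23 variant group. Members further apart could overlap too. In the FGF23 variant group Ren1 (40.16 to 57.06 FPKM) overlapped Agt (29.25 to 56.52), and Agtr1a (6.41 to 12.75) overlapped Ace (7.27 to 9.90).

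Ratios to Ace within a library, in which the library's scaling cancels, showed the members parting from Ace. These ratios were chosen after the values were seen and are a description without a test. The FPKM ratio of Mme to Ace was 1.34, 1.24, 0.930 and 0.993 in the FGF23 variant libraries, 0.416, 0.358, 0.451 and 0.377 in AKI mCherry, and 0.306, 0.248, 0.225 and 0.263 in NC, with no overlap between groups. That of Enpep to Ace was 2.67, 2.42, 1.79 and 2.35 in the FGF23 variant libraries, 1.23, 0.511, 1.33 and 1.01 in AKI mCherry, and 0.418, 0.533, 0.446 and 0.456 in NC, where 1 AKI mCherry library fell within the NC range. That of Agtr1a to Ace was 1.47, 1.46, 0.737 and 1.17 in the FGF23 variant libraries, 0.422, 0.260, 0.565 and 0.323 in AKI mCherry, and 0.259, 0.247, 0.249 and 0.275 in NC. The FGF23 variant libraries thus had more Mme, Enpep and Agtr1a per Ace than any library of the other groups. Agt per Ren1, substrate against enzyme, was 0.575, 1.00, 0.991 and 0.843 in the FGF23 variant libraries, 0.155, 0.574, 0.210 and 0.401 in AKI mCherry, and 1.49, 1.44, 0.675 and 0.715 in NC, so all AKI mCherry libraries were below all others, narrowly in replicate 2.

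**Figure D3:**
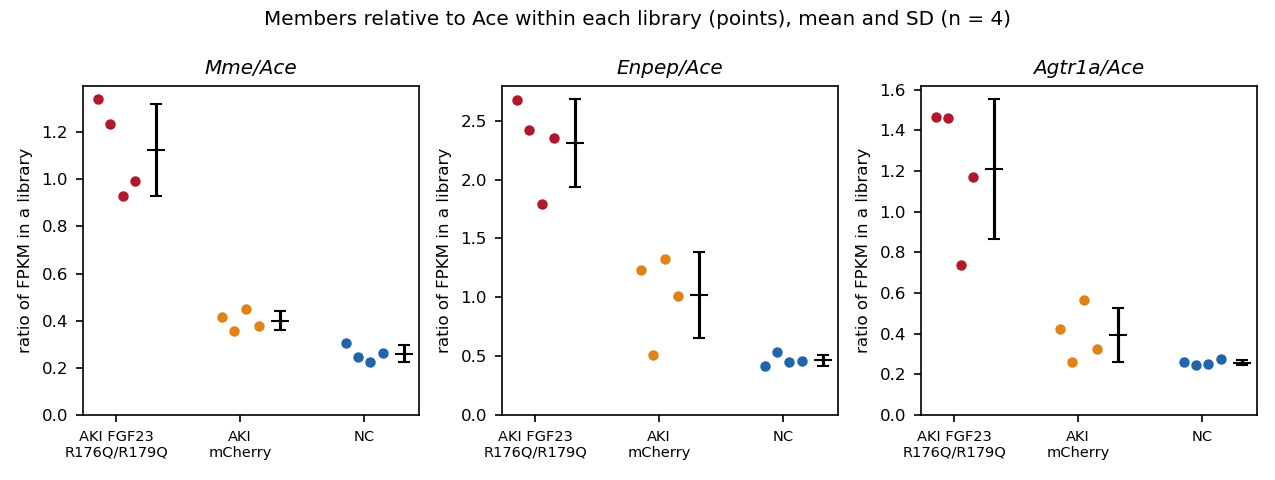
Ratio of deposited FPKM values to that of Ace within each library (y axis, from 0) for Mme, Enpep and Agtr1a, with mean and SD of 4 libraries. For Mme the ratio averaged 1.12 ± 0.195 in the FGF23 variant group, 0.400 ± 0.0412 in AKI mCherry and 0.261 ± 0.0344 in NC.

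Among 11017 genes with a mean of at least 5 CPM, those with the profile nearest to each member were found by the root mean square difference of centred log2(CPM + 1) values over the 12 libraries. Nearest to Ace were Cltrn, collectrin, a partner of brush border amino acid transporters (difference 0.202), Slc22a12, the urate transporter (0.233), the myosin gene Myo5a (0.233) and Nat8f7 (0.253). Cltrn averaged 253 CPM in the FGF23 variant group, 308 CPM in AKI mCherry and 1605 CPM in NC. Mme was nearest to Mthfd1, a folate enzyme (0.106), and to Dmtn, Cd302 and Keg1 (0.131 to 0.138). Agtr1a was nearest to Oxgr1, the oxoglutarate receptor (0.136), Mertk, a phagocytic receptor (0.142), Shank2 and Arhgap24. For Enpep the nearest were Ankhd1, Cmip, Rbl2 and the heme synthesis gene Cpox (0.130 to 0.144). Agt had no profile as near, the closest being Serpina1f, Tmem72, Matn2 and Igfbp3 (0.391 to 0.402). Between members the difference was 0.226 for Agtr1a and Mme, 0.342 for Enpep and Mme, and 0.888 for Ace and Mme. These differences take in both the group means and the spread of libraries within a group, and their shares were not separated. Agt averaged 73.2, 22.4 and 69.9 CPM in FGF23 variant, AKI mCherry and NC libraries, and Serpina1f 146, 56.0 and 147 CPM.

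Other brush border genes were split, between the injured groups, into those higher in FGF23 variant libraries and those that did not pass the test. Against NC, 8 of 10 tested were lower in AKI mCherry and 0 higher (median log2 fold change -2.28), beside 26.0% and 27.2% of all genes. In the FGF23 variant group 5 were higher than in AKI mCherry and 0 lower (median 0.71), beside 11.7% and 11.4% of all genes. Against NC, 9 of 10 were lower in the FGF23 variant group and 0 higher (median -1.66), beside 20.6% and 21.7% of all genes. The meprin subunit Mep1b averaged 57.9 CPM in the FGF23 variant group, against 9.13 CPM in AKI mCherry (6.36-fold higher, edgeR adjusted p = 0.00131), and the peptidase Xpnpep2 averaged 2.07 against 0.370 CPM (5.57-fold higher, edgeR adjusted p = 0.00540). Dpep1, a dipeptidase, and Pdzk1, a scaffold of apical transporters, were 2.82-fold and 2.37-fold higher. Named after their values were seen, Ggt1 (log2 fold change -0.04), Mep1a (0.40), Treh (0.07), Vil1 (-0.18) and Naaladl1 (0.50) passed no test in that comparison. Anpep, aminopeptidase N, which acts on angiotensin III, averaged 49.7 CPM in the FGF23 variant group, 20.5 CPM in AKI mCherry and 178 CPM in NC. It was 8.53-fold lower in AKI mCherry than in NC (edgeR adjusted p = 1.41e-06) and 2.43-fold higher in FGF23 variant libraries than in AKI mCherry (edgeR adjusted p = 0.00809).

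Markers of the proximal tubule and of the thick ascending limb, which follows further along the nephron, were read beside these enzymes. All 11 proximal tubule markers were lower in AKI mCherry than in NC, beside 26.0% of all genes. In FGF23 variant libraries 8 of 11 were higher than in AKI mCherry and 0 lower, beside 11.7% and 11.4% of all genes. All 11 were lower in FGF23 variant libraries than in NC (median log2 fold change -1.67), beside 20.6% of all genes. Their summed level was 1373 to 3146 CPM in the FGF23 variant group, 899 to 1286 CPM in AKI mCherry and 8407 to 12182 CPM in NC. Lrp2, the endocytic receptor megalin, averaged 503 ± 229, 183 ± 60.8 and 1783 ± 356 CPM in those groups, and Slc34a1, a phosphate transporter, 486 ± 238, 345 ± 19.2 and 4662 ± 998 CPM (SD, n = 4 each). None of the 11 was at 0 in any group. Of 5 thick ascending limb markers, 4 were lower in AKI mCherry than in NC, beside 26.0% of all genes. In FGF23 variant libraries 4 were higher than in AKI mCherry (median log2 fold change 1.04), beside 11.7% of all genes. Their sum was 5073 to 7577 CPM in the FGF23 variant group, 3076 to 3494 CPM in AKI mCherry and 7528 to 10234 CPM in NC. Umod, uromodulin, averaged 5299 ± 1141, 3064 ± 178 and 5064 ± 1020 CPM in those groups, and Egf, a growth factor, 271 ± 203, 19.1 ± 5.22 and 1815 ± 68.0 CPM (SD, n = 4 each). Markers of tubular injury ran the other way, at 7247 to 27137 CPM in sum in the FGF23 variant group, 37235 to 41695 CPM in AKI mCherry and 979 to 1121 CPM in NC. The part of tubule cell content in the values of Agt, Ace, Enpep, Mme and Agtr1a was not tested.

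**Figure D4:**
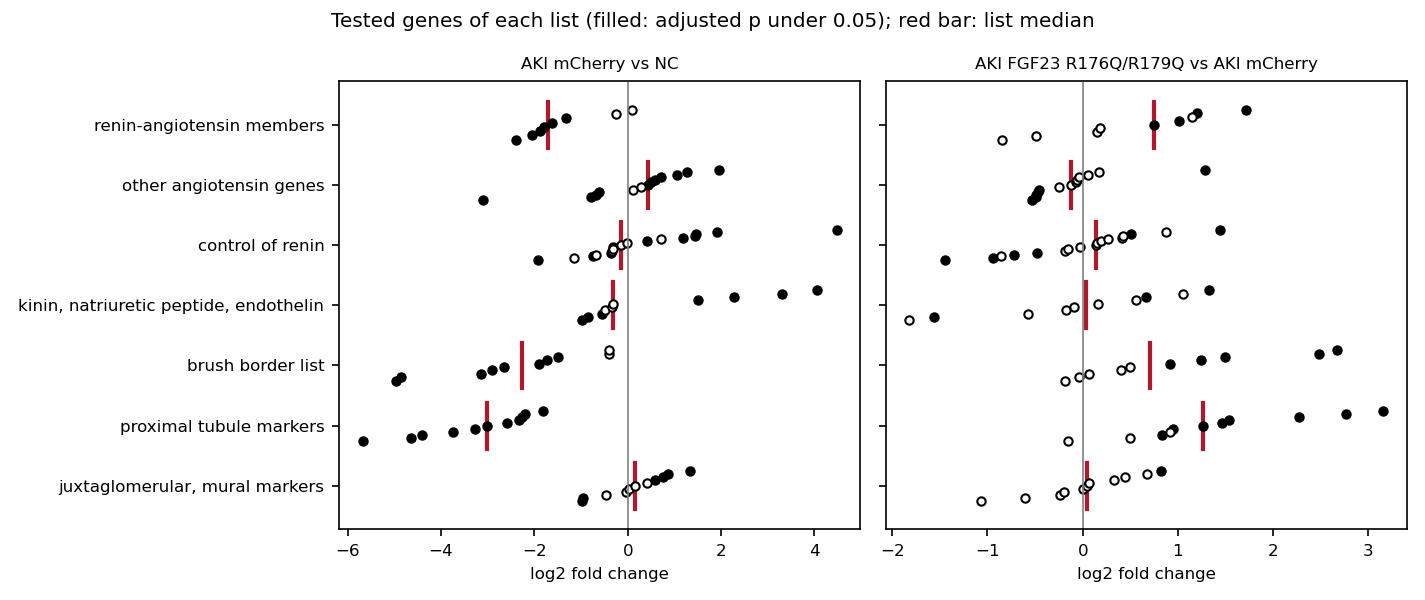
Log2 fold change (x axis) of each tested gene of 7 lists in AKI mCherry against NC and in the FGF23 variant group against AKI mCherry, with filled points for adjusted p under the threshold and a red bar for the list's median. Members, brush border enzymes and proximal tubule markers lie mostly below 0 in the first panel and mostly at or above 0 in the second, while lists of renin control and of juxtaglomerular genes lie on both sides.

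Of the other peptidases and receptor partners that act on angiotensins, 7 were higher and 4 lower of 13 tested in AKI mCherry against NC, beside 27.2% and 26.0% of all genes. The cathepsins Ctsd and Ctsb, lysosomal proteases that can act on angiotensinogen or prorenin, averaged 2726 and 1587 CPM in AKI mCherry against 713 and 668 CPM in NC (3.88-fold and 2.41-fold higher). Thop1, thimet oligopeptidase, was 2.08-fold higher, and Arap1, an adaptor of type 1 receptors, 1.65-fold higher. Besides Anpep, the lower genes were Ctsa (1.73-fold), Prcp, a carboxypeptidase that inactivates angiotensin II (1.61-fold), and Agtrap, which helps internalise type 1 receptors (1.53-fold). Only 1 of these genes, Anpep, was higher in FGF23 variant libraries than in AKI mCherry, and 5 were lower, beside 11.7% and 11.4% of all genes. The 5 were lower by 1.37-fold to 1.44-fold (Ctsb, Arap1, Nln, Ctsd and, named after its values were seen, Rnpep). In the FGF23 variant group against NC, 6 were higher and 4 lower, beside 21.7% and 20.6% of all genes.

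Among genes that govern renin release and transcription, 6 of 17 tested were higher and 4 lower in AKI mCherry than in NC, near the shares of all genes (27.2% and 26.0%). Between the injured groups, 2 were higher and 4 lower in the FGF23 variant group, where 11.7% and 11.4% of all genes were, and the counts say nothing particular to the list. Ptgs2, the prostaglandin synthase that drives renin release from the macula densa, averaged 3.46 CPM in the FGF23 variant group, 9.46 CPM in AKI mCherry and 0.430 CPM in NC. It was 22.2-fold higher in AKI mCherry than in NC (edgeR adjusted p = 5.41e-05) and 2.73-fold lower in FGF23 variant libraries than in AKI mCherry (edgeR adjusted p = 0.00357). Ptger4, a prostaglandin receptor, and Gja5, the gap junction protein of renin cells, were 3.78-fold and 2.73-fold higher in AKI mCherry than in NC, and 1.65-fold and 1.92-fold lower in FGF23 variant libraries than in AKI mCherry. Vdr, the vitamin D receptor, a repressor of renin transcription, averaged 175 CPM in the FGF23 variant group, 64.5 CPM in AKI mCherry and 247 CPM in NC. It was 3.77-fold lower in AKI mCherry than in NC (edgeR adjusted p = 4.30e-07) and 2.72-fold higher in FGF23 variant libraries than in AKI mCherry (edgeR adjusted p = 8.59e-04).

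Kinin, natriuretic peptide and endothelin genes, whose peptides Ace or Mme cleave, had 4 higher and 3 lower of 10 tested in AKI mCherry against NC, near the 27.2% and 26.0% of all genes. Bdkrb2, the kinin receptor, averaged 6.37 CPM in the FGF23 variant group, 18.9 CPM in AKI mCherry and 1.16 CPM in NC. It was 16.5-fold higher in AKI mCherry than in NC (edgeR adjusted p = 2.01e-07) and 2.96-fold lower in FGF23 variant libraries than in AKI mCherry (edgeR adjusted p = 0.00854). Edn1, endothelin, was 4.82-fold higher in AKI mCherry than in NC and 4.51-fold higher in FGF23 variant libraries than in NC. Kng2, a kininogen gene that rodents carry beside Kng1, averaged 310 CPM in the FGF23 variant group, 196 CPM in AKI mCherry and 359 CPM in NC. Ednrb, an endothelin receptor, was 1.98-fold lower in AKI mCherry than in NC and 2.51-fold higher in FGF23 variant libraries than in AKI mCherry. Reads of the near copies Kng1 and Kng2 could have been split by the counting.

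Other cells of the kidney also make or meet angiotensins. Endothelial markers, whose cells also carry Ace, summed to 393 to 507 CPM in the FGF23 variant group, 214 to 349 CPM in AKI mCherry and 323 to 409 CPM in NC. Of 8 tested, 4 were higher in FGF23 variant libraries than in AKI mCherry and 0 lower, beside 11.7% and 11.4% of all genes. The part of endothelial cells in the Ace values was not tested. Plvap averaged 138 ± 19.8 CPM in the FGF23 variant group, 66.6 ± 39.1 CPM in AKI mCherry and 111 ± 14.5 CPM in NC, and Emcn 56.8 ± 8.70, 47.7 ± 8.98 and 53.9 ± 7.33 CPM (SD, n = 4 each). Podocyte markers summed to 358 to 498, 281 to 531 and 297 to 436 CPM in the same order of groups, and those of macrophages to 66.2 to 89.7, 88.6 to 198 and 104 to 148 CPM. Adrenal cortex markers, read because the adrenal gland lies on the kidney and expresses type 1 receptors, summed to 3.78 to 6.42 CPM in the FGF23 variant group, 4.67 to 5.87 CPM in AKI mCherry and 3.65 to 5.41 CPM in NC. Their defining genes Cyp11b1 and Cyp11b2 were at 0 in all FGF23 variant and NC libraries. None of the listed adrenal markers was at 0 throughout AKI mCherry, where they summed to at most 5.87 CPM. Most of these sums came from 1 gene, Star, which averaged 4.95, 5.13 and 4.37 CPM in FGF23 variant, AKI mCherry and NC libraries. Cyp21a1, the next, averaged 0.0141, 0.0540 and 0 CPM. Only 1 of the 5 markers had counts high enough to be tested. The part of adrenal tissue in the Agtr1a values was not tested.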

How the data were processed

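Counts and FPKM values for 32047 genes in 12 libraries were used as deposited. Per the labels' protocols, poly(A) RNA was made into strand-marked paired-end libraries. Per the submitters' processing notes, the authors used fastp, StringTie and edgeR with GRCm39, without versions. The sources used here name no aligner, annotation or counting strand. The count columns the authors deposited are whole numbers in which 4 occurs 11995 times, against 5847 for 3 and 3638 for 5, so 1 event may give several counts, and no count is read as a molecule. The FPKM columns the authors deposited were used for order and ratios between genes only. Over 1245 genes, the length that counts and FPKM imply had a median coefficient of variation of 0.497% between libraries. Within groups, the chi-square over its degrees of freedom was 34.1 to 148 for library pairs, so none was counted as a duplicate.

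Groups came from titles. Each comparison was fitted on its 8 libraries with edgeR 4.0.16 in R 4.3.3 (filterByExpr, TMM factors, quasi-likelihood F test, Benjamini-Hochberg at 0.05 over all tested genes), after a check on simulated counts. CPM used TMM factors over all 12 libraries, which ran between 1.12 and 1.15 for FGF23 variant libraries, 0.903 and 1.02 for AKI mCherry, and 0.879 and 0.911 for NC. Alternatives were RLE, upper quartile and library-total scaling, no filter, a minimum mean of 5 CPM, a fit of all 12 libraries, the replicate number as a block, limma-voom (limma 3.58.1, with quality weights), DESeq2 1.42.0 and each library left out. Symbols came from a supplied annotation, and 31942 identifiers had one. Overlapping genes and promoters came from GRCm38 annotation and RefSeq. Named genes were all members, up to 4 called genes per direction, comparison and pathway list with the largest change, the 2 most abundant markers per cell type, the 4 nearest profiles per called member above 5 CPM, Fgf23 and Havcr1. Of 18 other angiotensin genes listed, 16 were found. Members and lists were chosen with earlier results of these data known. No protein sequence was used. Plots used Python 3.11.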

Additional observations from a re-analysis of the deposited data

Results flagged for a closer look

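In 27 groups of 4 CPM values (9 genes in 3 groups), 3 held a library set far apart from the others by Dixon's criterion at 95%, where chance alone would give about 1 in 20. Agt was 82.2 CPM in NC replicate 1, against 64.7 to 67.3 CPM in the other NC libraries. Without that library Agt in AKI mCherry against NC was -1.53 on the log2 scale (edgeR adjusted p = 0.00203). Agtr1b was 0.0562 CPM in FGF23 variant replicate 5, against 0.169 to 0.190 CPM in the others, which rests on 4 counts. Mas1 was 1.37 CPM in AKI mCherry replicate 4, against 0.400 to 0.526 CPM in the others. Without it the log2 fold change of Mas1 was -2.61 in AKI mCherry against NC (edgeR adjusted p = 1.71e-04) and -0.30 in the FGF23 variant group against AKI mCherry (edgeR adjusted p = 0.787).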

How the results depend on the processing

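Over the values of single members, alternatives left 415 on the same side of the threshold. Of the rest, 11 newly passed it, 10 lost it and 1 turned round and passed. That one was Atp6ap2 in the FGF23 variant group against NC, at 0.22 with library totals alone. The 415 include values that changed sign without passing in either fit. Ren1 in AKI mCherry against NC went from 0.08 to -0.29 without AKI mCherry replicate 1, for example. In AKI mCherry against NC, Agt, Ace, Agtr1a, Enpep and Mme passed in 17 of 17 alternatives and Mas1 in 16 of 16. In the FGF23 variant group against AKI mCherry, Agt, Agtr1a and Mme passed in 17 of 17, Enpep in 11 and Ace in 4. The count of lower members there became 1 (Ace) with DESeq2, limma-voom and all 12 libraries in 1 fit, and 0 to 1 when 1 library was left out. Leaving out 1 library gave 2410 to 4259 called genes, against 4347. The lowest were 2410, 2718 and 2853, without FGF23 variant replicate 1, 5 and 2. Library totals alone gave 1 higher (Atp6ap2) and 3 lower members (Ace, Mas1 and Mme) in FGF23 variant against NC, in place of 0 and 5. With that scaling, 79.7% of called genes were higher in FGF23 variant libraries than in AKI mCherry, against 50.6% with TMM, and 78.9% were higher than in NC, against 51.3%. The causes were not tested.

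The correlations between libraries do not settle whether the replicate numbers in the titles pair them. Same-numbered libraries correlated at -0.389 to 0.101 in AKI mCherry against NC and -0.225 to -0.0993 in FGF23 variant against NC. In both, 0 libraries correlated best with their own number. In the FGF23 variant group against AKI mCherry the values were 0.0813 to 0.231. There, of 3 shared numbers, 2 libraries in each group correlated best with their own number. With the number as a block, on fewer libraries, 1710 genes were called for FGF23 variant against AKI mCherry and 4715 against NC, where 3 members were lower (Agtr1a at adjusted p = 0.101 and Enpep at 0.0955 no longer passed). Depth limits Agtr1b and, in single libraries, Mas1.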
